A study of Mus musculus with 15 samples.

Results

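The genes described here are the expressed members of the mouse Zfp series, genes named Zfp with a number because their proteins carry zinc fingers, small protein folds that each hold a zinc ion. Members were chosen by their level: a symbol of the letters Zfp followed only by digits, and a mean of at least 1 TPM (a length-corrected transcript level) over the 15 libraries. Of 378 such genes looked at, 244 met this minimum and 134 did not, and 99 of those 134 had a mean under 0.1 TPM. Zfp462 and Zfp493 were not analysed here.

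Most of these proteins hold tandem C2H2 fingers, in which 2 cysteines and 2 histidines grip the zinc and each finger can read a short stretch of DNA. Many mouse Zfp genes also encode a KRAB box, a repressor domain that recruits Trim28 (KAP1) and, through it, the histone methyltransferase Setdb1, and several of these proteins hold retroelements or imprinted loci silent. The family grew by local duplication, so that near-copies lie side by side in clusters. A few Zfp genes encode unrelated proteins, such as the CCCH finger protein Zfp36 (tristetraprolin), which binds AU-rich messenger RNA and speeds its decay.

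Total RNA was sequenced from hematopoietic progenitors of mouse fetal liver that had been immortalized with Hoxb8 and grown with beta-estradiol. DDX41 is a DEAD-box helicase whose inherited variants predispose to myeloid malignancy. The 15 libraries formed 5 groups of 3. The first group, WT empty, was the hi-Ddx41+/+ line infected with the empty retrovirus. The other 4 were the hi-Ddx41+/- line, infected with the empty retrovirus (Het empty) or with a retrovirus holding wild-type DDX41 (Het DDX41), DDX41 G173R (Het G173R) or DDX41 R525H (Het R525H). All cells therefore carried a retroviral vector, were kept with virus for 2 days and were sorted for GFP. Each genotype is represented by 1 line, so the genotype and any other difference between the lines cannot be told apart. No label says that the 3 samples of a group were separate cultures, so the p-values rest on the spread among these samples and that spread may be technical.

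Libraries held between 22104066 and 49145873 expected counts, the read numbers that RSEM estimates per gene. Ddx41 stood at 55.6 to 63.4 CPM (counts relative to the scaled library total) in the WT empty libraries and at 28.7 to 33.0 CPM in the Het empty libraries, in the direction of the genotype labels. The 9 libraries labelled as carrying an insert had 27.8 to 36.9 CPM, which overlaps Het empty, so the insert labels are not seen in this gene. Whether reads from an insert would be counted under mouse Ddx41 is not given in the sources used here. Of the 8 progenitor markers examined, Cd34 had 710 ± 33.1 TPM and Kit 116 ± 10.3 TPM in WT empty (SD, n = 3), and of the markers of other tissues Alb, Col1a1 and Cd3e were at 0. In WT empty the 5 hepatocyte markers summed to at most 0.22 TPM, the 4 T and B cell markers to at most 0.42 TPM, and the 5 stroma and endothelium markers to 4.98 to 7.69 TPM, nearly all of it Pecam1, which blood cells also express. In every group the libraries numbered 3 stood apart from those numbered 1 and 2. Counts of called members against WT empty, for Het empty and for the mean of the 4 Het groups, are given with and without them. The other comparisons were not refitted without them.

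Promoter sequences of 4 members that differed between the lines show the range of CG content at these genes. Each is the 300 bases from 250 before to 50 after the RefSeq start (GRCm38.p6), 5′ to 3′ on the gene's strand, with every CG in capitals. CG reads the same on both strands. Zfp429 (chr13:67399718-67400017, minus strand, 10 CG), Zfp873 (chr10:82047873-82048172, plus strand, 6 CG) and Zfp560 (chr9:20385109-20385408, minus strand, 23 CG) were higher in the Het line, and Zfp318 (chr17:46383516-46383815, plus strand, 49 CG) was lower.
Zfp429: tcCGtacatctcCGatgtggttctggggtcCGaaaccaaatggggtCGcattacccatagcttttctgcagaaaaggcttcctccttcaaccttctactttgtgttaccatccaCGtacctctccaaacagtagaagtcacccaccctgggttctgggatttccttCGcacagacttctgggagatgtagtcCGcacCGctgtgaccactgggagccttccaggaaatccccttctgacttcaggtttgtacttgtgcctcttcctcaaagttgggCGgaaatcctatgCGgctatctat
Zfp873: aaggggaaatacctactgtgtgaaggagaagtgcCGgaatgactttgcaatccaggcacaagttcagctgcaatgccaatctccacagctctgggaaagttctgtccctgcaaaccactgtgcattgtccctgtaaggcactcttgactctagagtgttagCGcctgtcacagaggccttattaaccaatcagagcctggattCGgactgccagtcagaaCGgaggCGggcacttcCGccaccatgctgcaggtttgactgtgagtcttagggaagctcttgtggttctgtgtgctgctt
Zfp560: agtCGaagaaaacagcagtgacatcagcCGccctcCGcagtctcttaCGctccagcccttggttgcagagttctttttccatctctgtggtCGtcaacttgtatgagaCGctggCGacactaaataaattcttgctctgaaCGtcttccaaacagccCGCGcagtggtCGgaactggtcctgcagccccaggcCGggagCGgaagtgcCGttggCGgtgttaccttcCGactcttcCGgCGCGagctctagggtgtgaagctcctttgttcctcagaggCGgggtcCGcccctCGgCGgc
Zfp318: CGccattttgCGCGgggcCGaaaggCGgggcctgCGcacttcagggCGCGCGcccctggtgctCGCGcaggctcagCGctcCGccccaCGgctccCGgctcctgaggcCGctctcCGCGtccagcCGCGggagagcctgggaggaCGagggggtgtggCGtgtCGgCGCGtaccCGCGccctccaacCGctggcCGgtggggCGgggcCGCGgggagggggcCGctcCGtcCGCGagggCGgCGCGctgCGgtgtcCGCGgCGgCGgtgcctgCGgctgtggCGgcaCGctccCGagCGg

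The promoter table held 202 of the 244 members. Their windows had a median of 15.5 CG (quartiles 9 and 21), against a median of 7 over all 27025 promoters. At least 10 CG were found in 146 of the 202 (72.3%), against 43.9% of all promoters, and at least 1 in 94.2% of all promoters. The sets are unlike, since members were chosen by their level and the full set was not. No count over expressed genes alone is given here. Zfp658, which was lower in the Het line, had 19 CG. Zfp991 and Zfp41, which also differed between the lines, have no window here.

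The 244 members spanned levels from 1.01 TPM to 108 TPM. The median was 5.86 TPM and the quartiles were 3.31 and 11 TPM. Only 74 members reached 10 TPM, so most were low-level transcripts, and the 10 highest held 24.0% of the members' summed TPM. The highest was Zfp207 at 108 TPM, a microtubule-binding protein that loads the checkpoint protein Bub3 onto kinetochores. Zfp706 followed at 83.0 TPM and Zfp330 at 69.9 TPM. Zfp106, an RNA-binding protein, stood at 63.8 TPM. Zfp422 (42.8 TPM), the ubiquitin ligase Zfp91 (42.4 TPM) and Zfp146 (40.3 TPM), a protein made almost only of fingers, came next and lay close to each other. The last of the 10 were Zfp638 at 34.7 TPM, which silences unintegrated retroviral DNA, the KRAB protein Zfp445 at 34.5 TPM, which maintains imprints, and the BTB-domain factor Zfp131 at 29.1 TPM. The median coefficient of variation within groups was 12%, so neighbours in this order such as Zfp422 and Zfp91, or Zfp638 and Zfp445, did not differ beyond their spread.

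No member was silent in either line. Silent was taken as a mean under 0.1 TPM in 1 line with the empty vector and at least 1 TPM in the other; 0 members met this in the WT line and 0 in the Het line. Every member had reads in all 15 libraries, with a lowest expected count of 18. The lowest TPM of any member in any library was 0.48, for Zfp36 in Het G173R library 2. The lowest group mean in WT empty was 0.673 TPM, for Zfp429, and the lowest in Het empty was 0.953 TPM, for Zfp128. Group means under 1 TPM occurred for 2 members in WT empty (Zfp429 and Zfp41), for 1 in Het empty and for 0 in both. The counts of 0 stayed at 0 with a ceiling of 0.05 or 0.2 TPM and a floor of 0.5 or 2 TPM. They also stayed at 0 with all 12 Het libraries in place of the 3 with the empty vector, and with CPM in place of TPM. The same held with each library left out in turn. On the TPM scale this outcome was fixed, since no member was under 0.48 TPM in any library, so these alternatives do not test it.

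The choice of members bears on this answer. Since 12 of the 15 libraries are of the Het line, a gene silent in that line needs a much higher WT level to reach the mean than a gene silent in the WT line needs in the Het line. Zfp429 and Zfp41, under 1 TPM in WT empty, reached the minimum through the Het libraries. With both lines weighted equally, 247 genes qualified, adding Zfp57, Zfp689 and Zfp968 and dropping 0, and still none was silent. Just inside the minimum were Zfp580 at 1.05 TPM, Zfp128 at 1.04 TPM and Zfp248 at 1.01 TPM. Just outside were Zfp968 at 0.996 TPM, Zfp689 at 0.994 TPM and Zfp759 at 0.977 TPM.

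**Figure D1:**
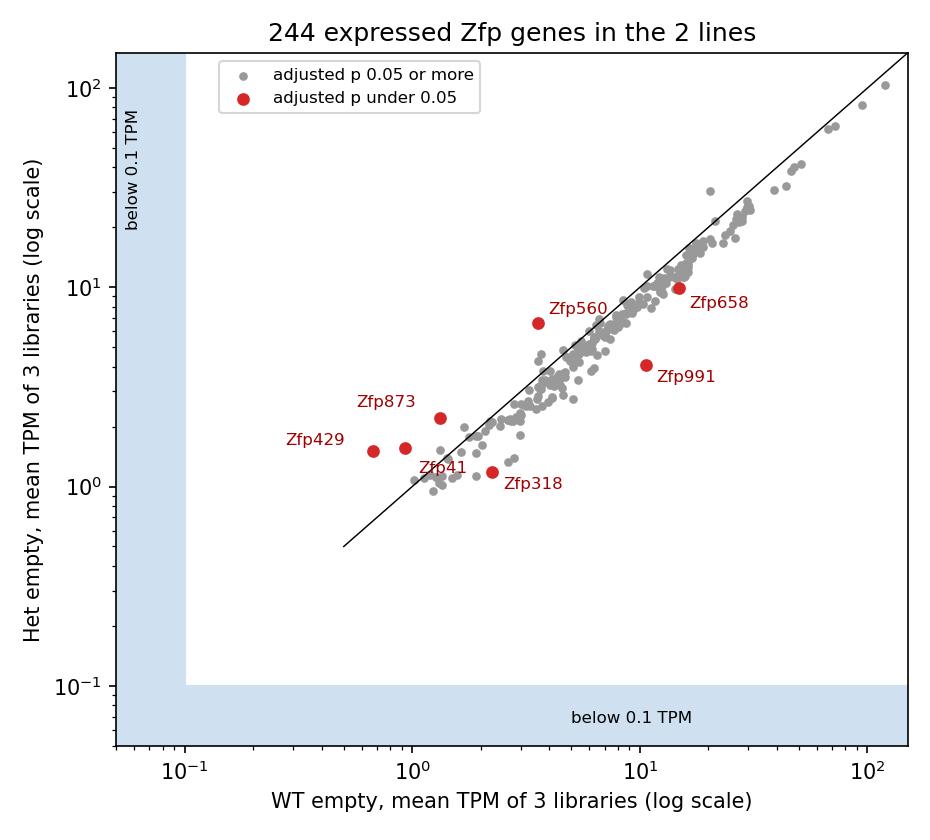
Mean TPM of each of the 244 expressed Zfp genes in Het empty (vertical) against WT empty (horizontal), both on log scales, each point 1 gene and the mean of 3 libraries. The line marks equal TPM, the shaded bands mark means under 0.1 TPM, and red points had an edgeR adjusted p under 0.05; no point lies in a band, and the lowest means are 0.673 TPM (WT empty) and 0.953 TPM (Het empty).

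The plot of the 2 lines' levels also shows that most points lie under the line of equal TPM. The TPM scale itself was shifted: the median log2 ratio of Het empty to WT empty was -0.21 over all genes tested and -0.26 over the members, and 225 members (92.2%) had a lower TPM in Het empty, against 84.0% of all genes. Comparisons between libraries were therefore made on counts scaled by TMM, on which the median log2 fold change was -0.04 over the members and -0.001 over all 14548 genes tested. On that scale 61.9% of the members had a log2 fold change under 0, against 50.2% of all genes. Members took 0.761% to 0.850% of the counts in the WT empty libraries and 0.727% to 0.784% in the Het empty libraries. These ranges overlap, and the share was lower in Het empty in each of the 3 pairs of same-numbered libraries. In bulk RNA, fewer cells of a type and less RNA per cell cannot be told apart.

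Between the lines, 7 of the 244 members differed at an adjusted p under 0.05 in edgeR's quasi-likelihood test, 4 higher and 3 lower in Het empty than in WT empty. That is 2.87% of the members, and 3.66% of all genes tested were called, so the share of members called was near the background. Of the 4 higher members, Zfp429 and Zfp41 reached the minimum through the Het libraries. Zfp57, which fell, missed it and enters only with both lines weighted equally. The balance of rises and falls thus depends on the choice of members. At an unadjusted p under 0.05 there were 28 members (11.5%, against 11.6% of all genes). In 56 of 244 members (23.0%, against 17.2% of all genes) the 3 libraries of 1 group all lay above the 3 of the other. Where the replicate number was a term in the fit, 20 members were called, 5 higher and 15 lower (8.20%, against 9.29% of all genes), including all 7. Only 3 members had a mean TPM that differed more than 2-fold between the lines, the largest ratio being 2.62 for Zfp991. On TMM-scaled counts 3 members differed more than 2-fold, namely Zfp991, Zfp429 and Zfp41.

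Zfp429, in the cluster of Zfp genes on chromosome 13, rose most among the members, which it joined through its level in the Het libraries. It had 1.43, 1.16 and 1.09 CPM in the 3 WT empty libraries and 2.78, 3.06 and 2.70 CPM in Het empty. It had 3.29, 3.16 and 3.56 CPM in Het DDX41, 3.12, 2.29 and 2.50 CPM in Het G173R and 3.59, 3.15 and 2.27 CPM in Het R525H. Every Het library was above every WT library, whatever the vector. The log2 fold change of Het empty against WT empty was 1.21 (SE 0.207, edgeR adjusted p = 0.00299). In 3 libraries its expected count was not whole, so some reads matched another gene and were shared out by RSEM.

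Zfp41 had 3.49, 3.71 and 2.93 CPM in WT empty and 7.39, 9.11 and 5.09 CPM in Het empty. The other 9 Het libraries had between 5.40 and 8.99 CPM, again all above WT empty. The log2 fold change was 1.09 (SE 0.232, edgeR adjusted p = 0.0149). In the Het groups the library numbered 3 was the lowest of its group each time. The call was lost without WT empty library 3 (edgeR adjusted p = 0.0734), Het empty library 1 (0.0506) or Het empty library 2 (0.0837).

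Zfp873 had 2.50, 3.02 and 2.57 CPM in WT empty and 5.09, 5.28 and 4.34 CPM in Het empty. The lowest of the other Het libraries had 4.19 CPM and the highest 6.34 CPM, so the lines did not overlap. The log2 fold change was 0.86 (SE 0.164, edgeR adjusted p = 0.00705). Zfp560 was at 4.64, 4.38 and 3.66 CPM in WT empty and at 7.04, 7.21 and 7.29 CPM in Het empty, a log2 fold change of 0.76 (SE 0.128, edgeR adjusted p = 0.00253). The remaining Het libraries had 6.33 to 8.59 CPM of Zfp560, all above the WT line.

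Zfp991 showed the largest fall. It lies on chromosome 4 beside Zfp978 and Zfp988, and had 27.1, 25.2 and 29.7 CPM in WT empty against 14.2, 12.6 and 9.05 CPM in Het empty. Across the other 9 Het libraries it had between 11.7 and 15.7 CPM. Thus all 12 Het libraries stood well under the lowest WT library. The log2 fold change was -1.19 (SE 0.158, edgeR adjusted p = 0.000359). Its expected count was a fraction in all 15 libraries, so its level rests on how RSEM divided reads among near-identical genes, and is uncertain.

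Zfp318, which in B cells governs the choice between IgM and IgD transcripts, had 15.9, 15.8 and 15.4 CPM in WT empty and 9.66, 9.77 and 8.50 CPM in Het empty. The Het groups with an insert ranged from 7.86 to 13.7 CPM, so the WT libraries were above all of them. The log2 fold change of Zfp318 was -0.75 (SE 0.146, edgeR adjusted p = 0.00781). Zfp658 had 45.5, 55.6 and 46.5 CPM in WT empty and 36.5, 39.2 and 37.2 CPM in Het empty, a log2 fold change of -0.39 (SE 0.0876, edgeR adjusted p = 0.0230). This smallest of the 7 differences was also the least stable. Its edgeR adjusted p was 0.109 without WT empty library 2, 0.0552 without Het empty library 2 and 0.0754 without Het empty library 3. The call was also lost without Het empty library 1.

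**Figure D2:**
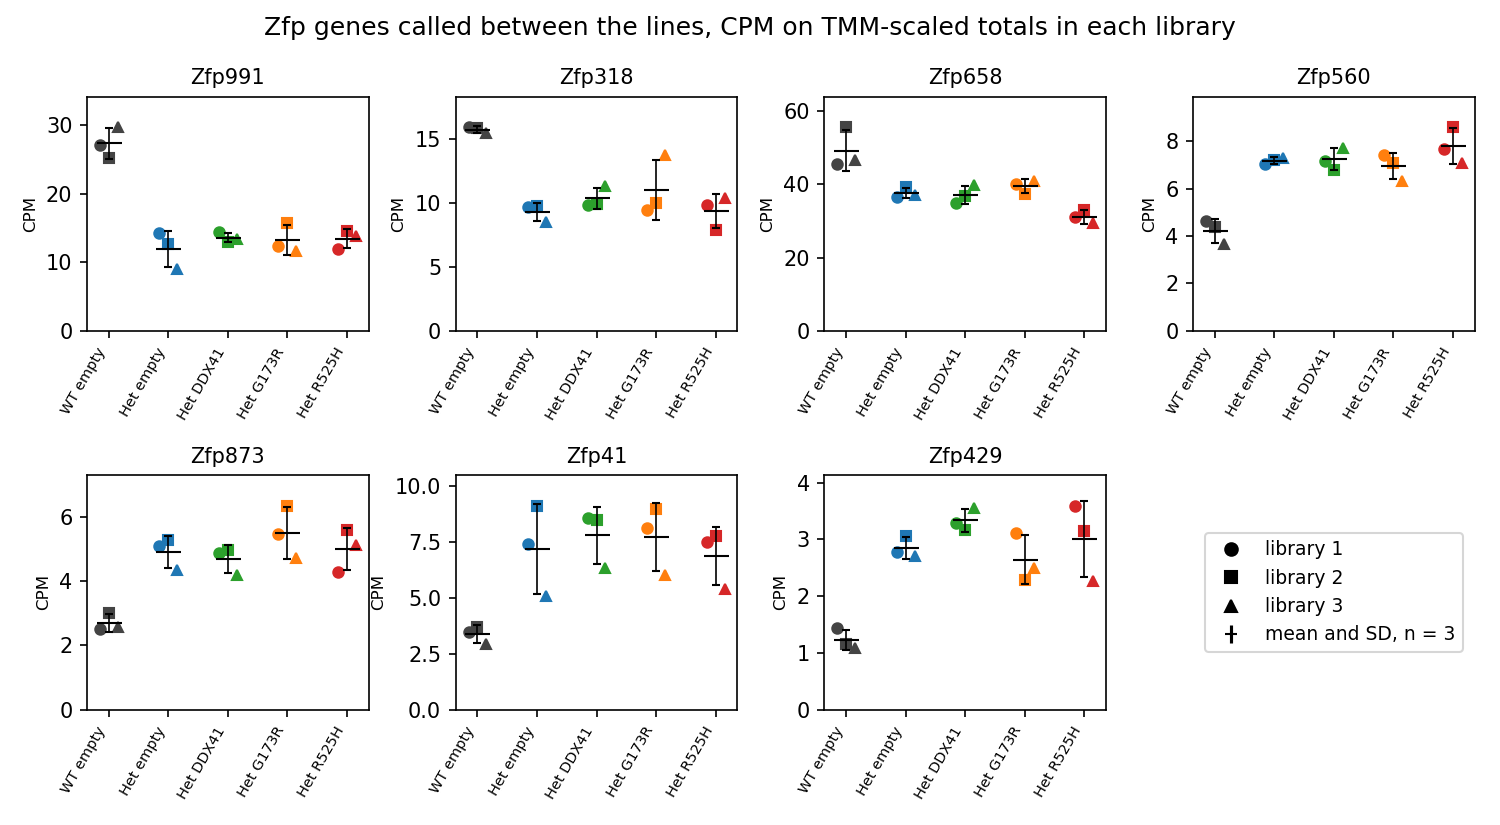
CPM on TMM-scaled totals (vertical axis, from 0) in each of the 15 libraries by group for the 7 Zfp genes called between Het empty and WT empty; circles, squares and triangles are the libraries numbered 1, 2 and 3, and bars are the mean and SD of 3. In each panel the 3 WT empty libraries lie on 1 side of the 12 Het libraries, for example 25.2 to 29.7 CPM against 9.05 to 15.7 CPM for Zfp991.

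As the plot of the called members shows, each of the 7 kept its direction against WT empty in all 4 Het groups. These comparisons share the 3 WT empty libraries and are not independent. Het DDX41, Het G173R and Het R525H against WT empty gave 9, 8 and 10 called members, against 4.54%, 3.79% and 6.68% of all genes. For Zfp991 the log2 fold changes were -1.01, -1.05 and -1.03, and for Zfp429 they were 1.44, 1.10 and 1.29. Zfp658 and Zfp318 did not pass in Het G173R, with edgeR adjusted p of 0.0685 and 0.0780. The mean of the 4 Het groups differed from WT empty for 13 members, 4 higher and 9 lower, or 5.33% against 7.67% of all genes. With the replicate number in the fit, 35 members were called there, 9 higher and 26 lower (14.3%, against 17.5% of all genes). Without the libraries numbered 3, the counts between Het empty and WT empty were 5 higher and 6 lower. The share of all genes called in that fit is not given here, so these counts have no background beside them.

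The 9 lower members in that wider comparison were Zfp991, Zfp318, Zfp658 and 6 others with smaller differences. Zfp28, a KRAB protein, had a log2 fold change of -0.66, and Zfp473, whose human counterpart serves in the U7 particle that cuts histone messenger RNA, had -0.50. Zfp966 had -0.43, Zfp263 had -0.31, Zfp367 had -0.26 and Zfp719 had -0.24. Zfp473 kept its call in all 15 fits that left out 1 library, with edgeR adjusted p up to 0.0294. Zfp28, Zfp966, Zfp263, Zfp367 and Zfp719 each lost theirs without WT empty library 1 and without WT empty library 3, where the edgeR adjusted p lay between 0.0697 and 0.264. Zfp367 lost its call in 11 of the 15 fits. Zfp719 lost its call in 4, which include the fits without WT empty library 2 (edgeR adjusted p = 0.102) and without Het DDX41 library 2 (0.0503). Without WT empty library 1, and likewise without WT empty library 3, 4 lower members were left.

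Of the 13 members called between Het empty and WT empty only with the replicate number in the fit, 12 were lower. Zfp473 (log2 fold change -0.44, edgeR adjusted p = 0.0234), Zfp90 (-0.48, 0.0256) and Zfp101 (-0.35, 0.0109) were among them. These 3 were picked as examples once their values had been seen. The 1 higher member was Zfp703, a corepressor of the NET family, with 37.4, 33.1 and 41.4 CPM in WT empty and 57.7, 41.8 and 74.7 CPM in Het empty. Its log2 fold change was 0.61 with the replicate number (edgeR adjusted p = 0.000982) and 0.64 without it (adjusted p = 0.148).

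Markers of other blood cells differed between the lines as well, where 3.66% of all genes were called. Summed TPM is given on the scale that was shifted, with 84.0% of all genes lower in Het empty. Calls and log2 fold changes use counts scaled by TMM. The summed TPM of 9 mast cell and basophil markers was 129 to 158 in WT empty and 78.3 to 90.1 in Het empty, and 4 of the 7 tested fell while 0 rose (median log2 fold change -1.55). Fcer1a and Tpsb2 of the same list were at 0. The 12 neutrophil markers summed to 899 to 1113 TPM in WT empty and 838 to 1694 TPM in Het empty, with 2 that rose and 1 that fell and a median log2 fold change of 0.96 (-0.001 over all genes). With the replicate number in the fit, 6 neutrophil markers rose and 1 fell. Of the 6 erythroid markers tested, 1 fell (Gata1), with summed TPM of the list at 7.75 to 11.5 in WT empty and 3.81 to 5.96 in Het empty and Hba-a1 at 0. Of the 3 eosinophil markers tested, Siglecf fell, with summed TPM of 45.3 to 49.7 against 18.9 to 21.9 and Epx at 0. Of the 8 progenitor markers, Ptprc rose and Flt3 fell, with a median log2 fold change of -0.035. The list summed to 1211 to 1334 TPM in WT empty and 974 to 1191 TPM in Het empty, on the shifted scale. Of the hepatocyte, stroma and lymphocyte markers tested, none passed without the replicate number; with it, Afp rose (0.13 TPM in WT empty, 0.34 TPM in Het empty) and Pecam1 fell (6.21 TPM, 2.97 TPM). The part of these markers in the differences of the Zfp genes was not tested.

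Described by role, the members showed few differences between Het empty and WT empty. None of the 7 RNA and ribosome genes passed, and their median log2 fold change was 0.05. Among them, Zfp622 (log2 fold change 0.05, SE 0.084) and Zfp593 (0.02, SE 0.155) act in the making of the large ribosomal subunit, and Zfp830 (0.12, SE 0.087) is a nuclear splicing-linked protein. Nor did any of the 3 genes of mitosis and of ubiquitin or SUMO ligation pass. These were Zfp207 (0.01, SE 0.170), Zfp91 (-0.05, SE 0.054) and the SUMO ligase Zfp451 (0.04, SE 0.087).

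Among the 16 tested broad transcription factors and chromatin proteins, Zfp318 fell and 0 rose. Zfp143, which binds promoters and loop anchors, had 30.0, 30.2 and 33.5 CPM in WT empty and 29.8, 31.0 and 32.0 CPM in Het empty, and these libraries overlapped. Zfp148, a factor of GC-rich promoters, had a log2 fold change of -0.08 (SE 0.064). The 2 tested blood and stem cell genes, Zfp296 and Zfp467, had -0.06 (SE 0.256) and -0.06 (SE 0.263). Zfp521, Zfp366 and Zfp42 of the same list were at 0 TPM in both lines and are not members.

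Of the imprint and retroviral silencing genes, 6 were tested and 4 are members. None of the 4 members passed between the lines. Zfp445 had 142, 124 and 136 CPM in WT empty and 129, 110 and 108 CPM in Het empty, groups that overlapped (log2 fold change -0.22, SE 0.075, edgeR adjusted p = 0.191). With the replicate number in the fit its edgeR adjusted p was 0.0435. Zfp568, a repressor of a placental Igf2 promoter, had 0.15 (SE 0.163), Zfp932 had -0.20 (SE 0.127) and Zfp809, which recognises the primer binding site of murine leukemia virus, had -0.12 (SE 0.163). Zfp809 was at 15.8, 14.7 and 15.5 CPM in WT empty and 13.6, 12.9 and 15.8 CPM in Het empty, again overlapping.

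The 1 gene of that list to fall was Zfp57, a KRAB protein that keeps imprinted methylation, which is not a member because its mean over 15 libraries was 0.699 TPM. Zfp57 stood at 2.97, 1.73 and 2.58 TPM in WT empty and at 0.58, 0.14 and 0.30 TPM in Het empty. In the 9 libraries with an insert it was between 0.05 and 0.43 TPM, so it remained low with each vector. The log2 fold change was -3.00 (SE 0.408, edgeR adjusted p = 0.000457), a larger difference than that of any member. Against 3.66% of all genes called, 1 of the 38 tested among the 134 genes under the minimum was called, and it was Zfp57. Its mean of 0.34 TPM in Het empty was above the ceiling for silence.

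The partners through which KRAB proteins act were counted beside all genes, of which 3.66% were called between the lines. Of 24 corepressor genes tested, 1 fell and 0 rose, and the median log2 fold change was 0.01. Trim28 had 641, 736 and 641 CPM in WT empty and 667, 719 and 552 CPM in Het empty, overlapping groups with a log2 fold change of -0.06 (SE 0.173, edgeR adjusted p = 0.977). The gene that fell was Chd3, a helicase of the NuRD deacetylase complex, at 21.2, 24.3 and 24.8 CPM in WT empty and 3.78, 3.60 and 4.37 CPM in Het empty. Its log2 fold change was -2.58 (SE 0.376, edgeR adjusted p = 0.000814). Of 11 imprinted genes tested, 0 passed between Het empty and WT empty. Nor did any of 16 Zkscan and Zscan genes or of 34 Zbtb genes, other families of DNA-binding zinc fingers. With the replicate number in the fit, where 9.29% of all genes were called, the imprinted gene Grb10 rose (edgeR adjusted p = 0.0195) and Zbtb1 fell (0.011). For the mean of the 4 Het groups against WT empty, 1 imprinted gene rose, 1 Zkscan or Zscan gene fell and 1 Zbtb gene fell. In that comparison 7.67% of all genes were called.

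None of the 244 members passed in any comparison among the 4 Het groups. Against Het empty, whose 3 libraries the first 3 comparisons share, 0 members were called in Het DDX41 (0% of all genes), 0 in Het G173R (0%) and 0 in Het R525H (0.0137%). Between inserts, 0 were called in Het G173R against Het DDX41 (0%), 0 in Het R525H against Het DDX41 (0%) and 0 in Het G173R against Het R525H (0.0825%). The edgeR test of any difference among the 4 groups called 0 members and 0.0137% of all genes. Members at an unadjusted p under 0.05 numbered 0, 1, 15, 4, 9 and 23 in the 6 comparisons in that order, and 10 in the joint test. The shares of all genes at that p were 1.75%, 0.605%, 4.98%, 1.54%, 3.99% and 6.39%, and 3.22% in the joint test, while 15 and 23 members are 6.15% and 9.43%. DESeq2 called 0, 0, 2, 0, 0 and 3 members, against 0.00801%, 0.00801%, 0.401%, 0.016%, 0.22% and 0.788% of all genes.

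**Figure D3:**
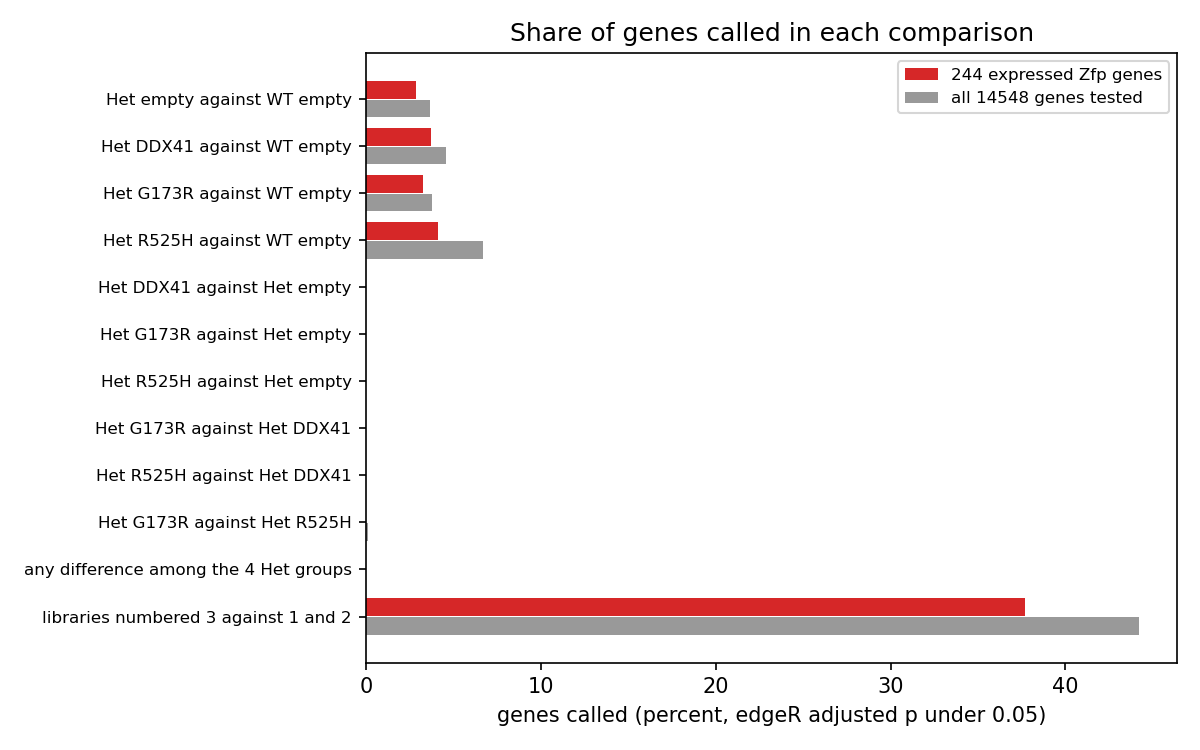
Share of the 244 expressed Zfp genes (red) and of all 14548 genes tested (grey) with an edgeR adjusted p under 0.05, in percent from 0, for each comparison. The shares of members are 2.87% between Het empty and WT empty, 0% in each comparison among the Het groups and 37.7% by library number.

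Estimated differences between vectors were small for most members, and each estimate has its own error. The ranges below span the estimates of the 244 members and do not bound the effect on any 1 member. The median SE of a member's log2 fold change was 0.128. In Het DDX41 against Het empty all 244 members lay within 0.5 of 0 on the log2 scale, and 95% of them between -0.28 and 0.19. In Het G173R against Het empty this range was -0.21 to 0.23 and 243 members lay within 0.5. In Het R525H against Het empty it was -0.31 to 0.29, with 242 within 0.5. A missing call does not show that the vectors act alike.

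Several members came near in comparisons with Het R525H and were picked out after their values were seen. Zfp131 had 82.5, 85.1 and 79.4 CPM in Het empty and 93.9, 99.7 and 104 CPM in Het R525H, with the groups apart. Its log2 fold change was 0.27 (SE 0.067), with an adjusted p of 0.383 in edgeR and 0.0240 in DESeq2. Zfp330 had 102, 106 and 104 CPM in Het empty and 121, 117 and 124 CPM in Het R525H, also apart, and its adjusted p was 0.473 in edgeR and 0.0358 in DESeq2. In Het G173R against Het R525H, DESeq2 called Zfp131 (adjusted p = 0.0126), Zfp1 (0.0331) and Zfp658 (0.0487), the last also called between the lines. The lowest edgeR adjusted p of any member in that comparison was 0.24. Zfp800 had 67.0, 65.6 and 69.9 CPM in Het G173R and 84.8, 82.2 and 93.5 CPM in Het R525H. With the replicate number in the fit, the edgeR adjusted p of Zfp800 was 0.0301 in Het G173R against Het R525H and 0.0424 in Het R525H against Het DDX41, and that of Zfp1 was 0.0420 in the first of these. These were the only 2 members that the replicate number added among the Het groups, where it called 0.969% of all genes in the first comparison and 0.406% in the second.

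More members were called by library number than by line or vector. Between the libraries numbered 3 and those numbered 1 and 2, with the group in the edgeR fit, 92 members were called, 27 higher and 65 lower. That is 37.7% of the members, against 44.2% of all genes. No label says what the number stands for. The median SE was 0.067 in this comparison, which uses all 15 libraries, so a smaller difference could pass than between 2 groups of 3.

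Zfp36, the RNA-decay factor, was the member most raised in the libraries numbered 3. In WT empty it had 1.88, 1.66 and 6.15 CPM and in Het empty 2.30, 2.65 and 6.26 CPM in libraries 1, 2 and 3. Library 3 was the highest in all 5 groups, and the log2 fold change was 1.29 (SE 0.168, edgeR adjusted p = 3.6e-05). Among the genes that fell was Zfp207, with 250, 245 and 212 CPM in WT empty and 271, 267 and 197 CPM in Het R525H. It was lowest in library 3 in all 5 groups (log2 fold change -0.40, SE 0.039, edgeR adjusted p = 3.27e-06). Zfp251 was likewise lowest there in all 5 (-0.47, SE 0.049). These genes were chosen after their values were seen.

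Of the 7 members called between the lines, Zfp41 also fell in the libraries numbered 3 (log2 fold change -0.49, SE 0.080, edgeR adjusted p = 0.000219). Zfp703 rose in them (0.43, SE 0.070) and Zfp28 rose in them (0.36, SE 0.095), both in all 5 groups. For the KRAB corepressor list, 16 of 24 genes fell and 3 rose with the number, where 44.2% of all genes were called. The histograms of log2 fold changes show few called genes by line and many by number, on both sides of 0 in each. The spread itself was not wider by number. There 95% of the members lay between -0.40 and 0.36, against -0.46 and 0.45 by line.

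**Figure D4:**
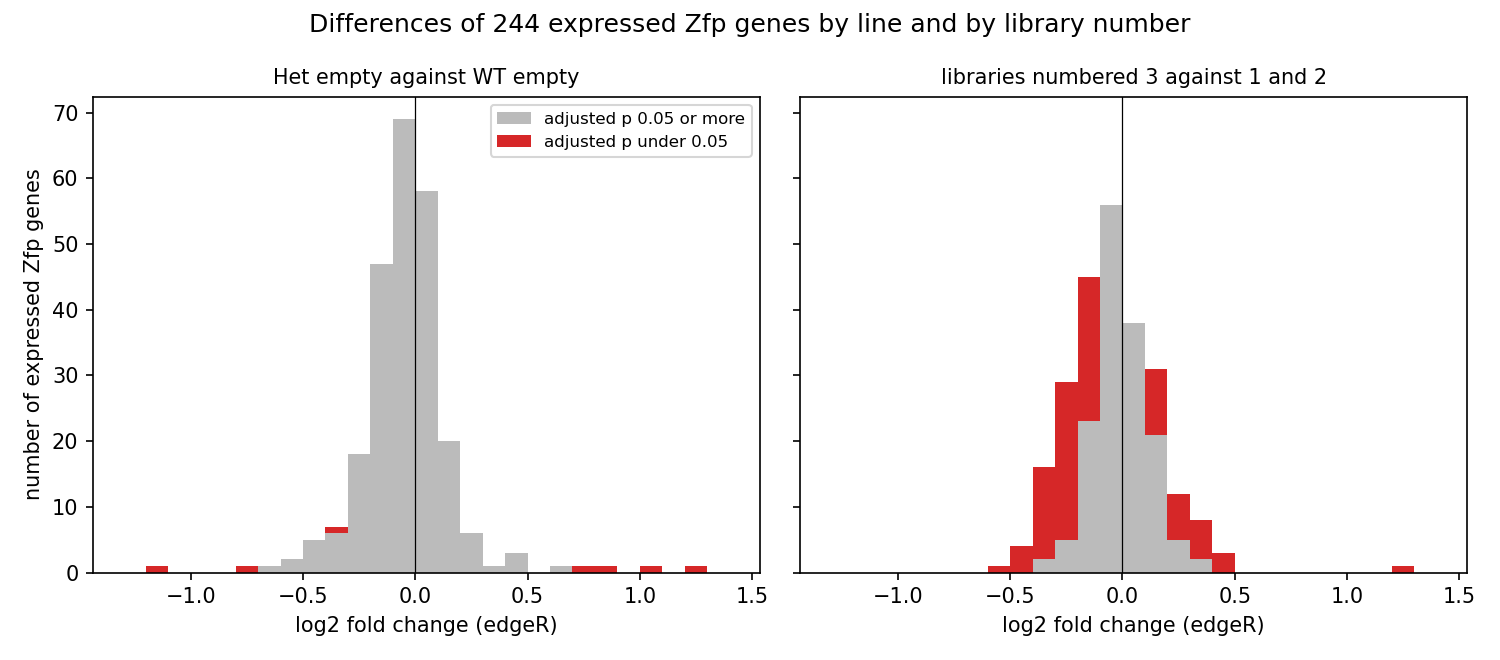
Number of expressed Zfp genes (vertical axis) by log2 fold change in edgeR (horizontal axis, bins of equal width) for Het empty against WT empty (left) and for libraries numbered 3 against 1 and 2 (right), with called genes in red stacked on the rest in grey. The left panel holds 7 called genes and the right 92, among which Zfp36 stands alone at 1.29.

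By position, the members were concentrated on a few chromosomes. Positions were looked up among the protein-coding genes of RefSeq only, and 242 of the 244 members were found there. Chromosome 7 held 64 of them (26.4%, against 9.27% of protein-coding genes), chromosome 17 held 27 (11.2% against 4.84%) and chromosome 13 held 20 (8.26% against 3.79%). In 96 cases (39.7%) the next protein-coding gene on at least 1 side was also a member, and there were 16 runs of at least 3. The longest run had 6 members, Zfp398, Zfp282, Zfp212, Zfp956, Zfp777 and Zfp746 on chromosome 6.

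The tested members beside the called genes did not pass between Het empty and WT empty. Zfp429 lies in a run with Zfp595, Zfp953 and Zfp456, and the nearest 2, Zfp456 and Zfp953, had log2 fold changes of -0.19 (SE 0.144) and 0.02 (SE 0.119) between Het empty and WT empty. Zfp560 is followed by Zfp26 and Zfp426, at -0.01 (SE 0.081) and 0.08 (SE 0.116). Zfp719, beside Zfp658, had -0.26 (SE 0.081, edgeR adjusted p = 0.12), the same sign as Zfp658. These neighbours, and those that follow, were looked up after the calls were known.

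Among the 28 protein-coding genes within 2 positions of the 7 called members, 11 were tested and 3 were called, while 3.66% of all genes tested were called. Cd33, a sialic acid-binding receptor of myeloid cells that lies beside Zfp658, had 497, 424 and 474 CPM in WT empty and 401, 323 and 333 CPM in Het empty. Its log2 fold change was -0.40 (SE 0.091, edgeR adjusted p = 0.0234), close to that of Zfp658. Top1mt, the mitochondrial topoisomerase gene beside Zfp41, had 0.337, 0.665 and 1.09 CPM in WT empty and 3.14, 2.31 and 2.82 CPM in Het empty, a log2 fold change of 1.97 (SE 0.354, edgeR adjusted p = 0.00443). AU041133, 2 genes from Zfp873, was at 0 in the 3 WT empty libraries and at 0.416, 0.346 and 0.124 CPM in Het empty (edgeR adjusted p = 0.00283). The mean of AU041133 in Het empty was only 0.11 TPM. Each of these 3 called genes differed in the direction of its Zfp neighbour. Tested neighbours that were not called had either sign. Abcc10 beside Zfp318 had the opposite sign (log2 fold change 0.23, SE 0.216), and Zfp982 near Zfp991 the same (-0.115, SE 0.235). Whether the files' counting used strand is not given in the sources used here, so reads of overlapping genes cannot be told apart.

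Reads that match near-copies limit some of these values. A count that was not whole in at least 1 library was found for 62 members, and in all 15 libraries for 18, Zfp991 among them. For such members RSEM's division of reads can move part of one gene's signal to another.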

How the data were processed

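RNA of 15 samples in 5 groups of 3 was analysed, with groups and replicate numbers from the sample titles. The names of 12 files carry another group's code than their sample's title, and the groups follow the titles. Each sample has 1 RSEM table of 55359 genes, made by the authors per the submitters' processing notes. For the aligner, build and RSEM version, nothing is stated in the labels or file headers. The library kit, per the labels, was stranded and reduced rRNA. The deposited expected counts are estimates that share out ambiguous reads, and 6.26 to 6.92 percent of genes per library were not whole. The deposited TPM column, which the authors normalized, was used for levels and for choosing members; FPKM, also deposited, was not used.

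Expected counts were rounded and fitted with edgeR 4.0.16 (R 4.3.3; filterByExpr, 14548 genes with 99.95 to 99.97 percent of counts; TMM factors 0.9687 to 1.057) in 1 quasi-likelihood model over 15 libraries, common dispersion 0.0369, with Benjamini-Hochberg adjustment over all genes and a call at an adjusted p under 0.05. CPM use TMM-scaled totals. Alternatives were DESeq2 1.42.0, RLE scaling, no filter, a replicate term, other member limits and libraries left out. The edgeR fit was also run on simulated counts with the common dispersion for every gene and no effect of library number. These settings are simpler than the data, so that run does not test the calls made here.

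Same-numbered libraries of Het empty and WT empty deviated together (correlation of deviations across genes 0.490, 0.453 and 0.358 for numbers 1, 2 and 3, all over 0.1), so fits with the replicate number are given beside that comparison; the pairing comes from these values, not from the labels. It also held for Het G173R against Het empty and for the 3 comparisons between inserts.

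Members and gene lists were chosen with earlier results of these data known. Genes named were silent members, the 12 largest rises and falls among called members with groups apart, the 10 highest by mean TPM, members called between Het groups (up to 6), the 3 nearest each side of the minimum, and up to 4 per list by smallest p; others are named as chosen later. Promoters and gene order are from RefSeq (GRCm38.p6), with the order taken over protein-coding genes only. A split of members by protein domains was not made here.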

Additional observations from a re-analysis of the deposited data

How the results depend on the processing

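The counts of silent members stayed at 0 in every alternative run. For the 244 members this outcome was fixed on the TPM scale, as none was under 0.48 TPM in any library. Between Het empty and WT empty, 4 members were higher and 3 lower. The lower count became 15 with the replicate block, 6 without the libraries numbered 3 and 8 with DESeq2, and the higher count became 2 with a minimum of 2 TPM for members. For the mean of the 4 Het groups against WT empty (4 higher, 9 lower), the replicate block gave 9 higher and 26 lower, leaving out the libraries numbered 3 gave 7 and 18, DESeq2 gave 14 lower and the minimum of 2 TPM gave 2 higher. Leaving out 1 library at a time gave 4 to 13 lower members in that comparison, the low end without WT empty library 1 or 3. Of all genes, 3.66% and 7.67% were called in these 2 comparisons, and 9.29% and 17.5% with the replicate block. For DESeq2 and for libraries left out, the shares of all genes against WT empty are not given here. Those counts therefore cannot be read as particular to the members. Among the Het groups, DESeq2 gave 2 members in Het R525H against Het empty and 3 in Het G173R against Het R525H, and the replicate block gave 1 in Het R525H against Het DDX41 and 2 in Het G173R against Het R525H. The pairing by number held for all 3 pairs in 5 of the comparisons, those named with the processing; in the others at least 1 pair correlated under 0.1. No alternative turned a direction. Calls of single named genes were lost in 32 alternative fits and gained in 14, and 467 alternative values, counts included, kept their direction and their side of the threshold. The cause was not tested. Depth limits the lowest members most, such as Zfp580, with 18 counts in Het G173R library 1, and genes under the minimum of 1 TPM.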
